A study of Mus musculus with 10 samples.

Results

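The enzymes described here attach a water-soluble group to hormones, bile acids, drugs and reactive metabolites. They are the sulfotransferases (Sult), the UDP-glucuronosyltransferases (Ugt) and the glutathione transferases (Gst). Members were the genes whose name in the array files begins with Sult, Ugt or Gst and a letter or digit, without Gstz1, and the probe with the highest mean processed Cy5 signal stands for each. This gave 44 members (11 Sult, 14 Ugt and 19 Gst) with 60 probes, of 27670 genes on the array. All 44 were among the 18912 genes tested, which needed a probe that the scanner called well above background in Cy5 on 4 or more arrays, and 39 had a probe that was so on all 10. Names alone set the membership, so Gstcd, whose product is named only for a glutathione transferase C-terminal domain, and Ugt8a, which uses UDP-galactose to build brain and nerve lipids, are included.

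RNA was taken from livers of 5 mice homozygous for a knockout of the glucagon receptor gene Gcgr (KO) and of 5 wild-type mice (WT). KO 1 and KO 5 were males and KO 2, KO 3 and KO 4 females, while WT 1, WT 2 and WT 5 were males and WT 3 and WT 4 females. How the knockout was made, the strain, the age and the feeding state are not given in the sources used here. Every liver was labelled with Cy5 and hybridised beside a Cy3-labelled universal mouse reference RNA, so each value below is a log2 ratio of liver over that reference, and it compares livers for 1 gene but not 1 gene with another.

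Sulfotransferases transfer sulfate from the donor PAPS, glucuronosyltransferases transfer glucuronic acid from UDP-glucuronic acid, and glutathione transferases join glutathione to electrophiles or bind hydrophobic ligands. In liver these reactions prepare steroids, thyroid hormones, bilirubin and xenobiotics for export into bile or blood. Glucagon signals to hepatocytes through Gcgr, cAMP and the factor CREB. In mouse liver several of these genes are known to differ between the sexes under the pattern of growth hormone release, which acts through STAT5, and others respond to the oxidant sensor NRF2 or to nuclear receptors.

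The Gcgr probe checked the genotypes. It had log2 ratios of 0.28 to 0.36 in KO livers, against 7.74 to 8.14 in WT livers. The sex labels fitted Xist and the Y-linked genes in all 10 livers. The arrays lay on 4 slides: slide 1 held KO 1, KO 2, WT 1 and WT 2, slide 2 held KO 3 and KO 4, slide 3 held KO 5, WT 3 and WT 4, and slide 4 held WT 5. The net Cy5 signal of an array had a median of 56.7 to 76.1 on slides 3 and 4, below the 108 to 130 of the other slides. Sex separated the livers along the leading principal component (48.9% of the variance) and genotype along the next (19.1%). Each liver is 1 replicate, and the number of arrays limits the precision.

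RefSeq promoter windows of GRCm38.p6, 300 bases each, were at hand for 38 of the 44 members (48 windows). The 150 bases before the annotated start are shown for 6 members on which the results below turn: the sulfotransferase with the largest genotype difference, the neighbours Gstm2 and Gstm1 that moved in opposite directions, and 3 members with a motif match. Each is printed 5′ to 3′ on the strand of its gene, from the most upstream start. Capitals mark an antioxidant response element core (TGACNNNGC) in Gsta3, a cAMP response short site (TGACG, here on the reverse strand) in Ugt1a9 and a STAT site (TTCNNNGAA) in Sult3a1.
Sult5a1 chr8:123158281-123158430 (minus strand): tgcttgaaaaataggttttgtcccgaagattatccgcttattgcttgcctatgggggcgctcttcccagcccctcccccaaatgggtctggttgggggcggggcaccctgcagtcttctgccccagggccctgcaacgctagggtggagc
Gstm2 chr3:107986421-107986570 (minus strand): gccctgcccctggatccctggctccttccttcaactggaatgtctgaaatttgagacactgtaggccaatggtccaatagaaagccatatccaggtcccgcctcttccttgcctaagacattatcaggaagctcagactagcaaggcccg
Gstm1 chr3:108017974-108018123 (minus strand): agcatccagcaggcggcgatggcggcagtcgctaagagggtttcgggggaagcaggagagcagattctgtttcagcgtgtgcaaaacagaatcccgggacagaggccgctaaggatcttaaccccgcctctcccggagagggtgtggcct
Gsta3 chr1:21240435-21240584 (plus strand): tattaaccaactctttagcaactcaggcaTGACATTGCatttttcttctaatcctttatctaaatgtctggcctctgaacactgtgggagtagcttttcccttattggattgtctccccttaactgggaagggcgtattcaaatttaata
Ugt1a9 chr1:88070629-88070778 (plus strand): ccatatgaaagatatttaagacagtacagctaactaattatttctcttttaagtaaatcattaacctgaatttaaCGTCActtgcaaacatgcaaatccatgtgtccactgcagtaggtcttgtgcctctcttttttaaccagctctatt
Sult3a1 chr10:33857572-33857721 (plus strand): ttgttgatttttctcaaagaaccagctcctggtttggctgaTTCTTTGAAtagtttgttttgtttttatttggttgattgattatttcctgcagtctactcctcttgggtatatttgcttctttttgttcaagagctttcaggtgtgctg

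The match in Gsta3 began 121 bases before the start, that in Ugt1a9 75 bases and that in Sult3a1 109 bases. Gstm1 had no match here but held a TATA box (TATAAA) 30 bases before its other, downstream start. Both strands of the full windows were searched. The antioxidant core was in the windows of Gsta3, Gstm5 and Gstm7, and in 12.4% of all 32851 promoter windows. The cAMP short site was in those of Gstcd, Gstk1, Gstm5, Gsto1, Sult2b1 and Ugt1a9, and in 20.8% of all windows, while the whole cAMP response element TGACGTCA was in 0 member windows and 1.79% of all. The short site is contained in the whole element. The STAT site was in Gsta1, Gstm6 and Sult3a1, and in 8.30% of all windows. A match describes the letters only.

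A gene passed where its adjusted p from limma was below 0.05, with Benjamini-Hochberg adjustment over all 18912 genes and sex as a term in the model. KO livers differed from WT livers at 12 of the 44 members (27.3%), of which 10 were lower and 2 higher in KO. Among all genes tested 6.00% passed, 3.09% lower and 2.90% higher in KO. The higher calls were 48.4% of all calls over all genes, and 72.2% of 281 calls when arrays were centred on their median instead of by loess, and 58.7% of 339 when outlier spots were removed after the background correction. By family, 2 of 11 Sult, 2 of 14 Ugt and 6 of 19 Gst genes fell, and 2 Gst genes rose. The median KO minus WT difference was -0.40 over the Sult genes, -0.01 over the Ugt genes and -0.07 over the Gst genes, beside -0.003 over all genes tested. All KO livers lay below all WT livers at 6 members (13.6%) and at 3.08% of all genes. They lay above all WT livers at 3 members, and at 2.99% of all genes. Since whole livers were measured, fewer cells of a type and less RNA per cell cannot be told apart.

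**Figure D1:**
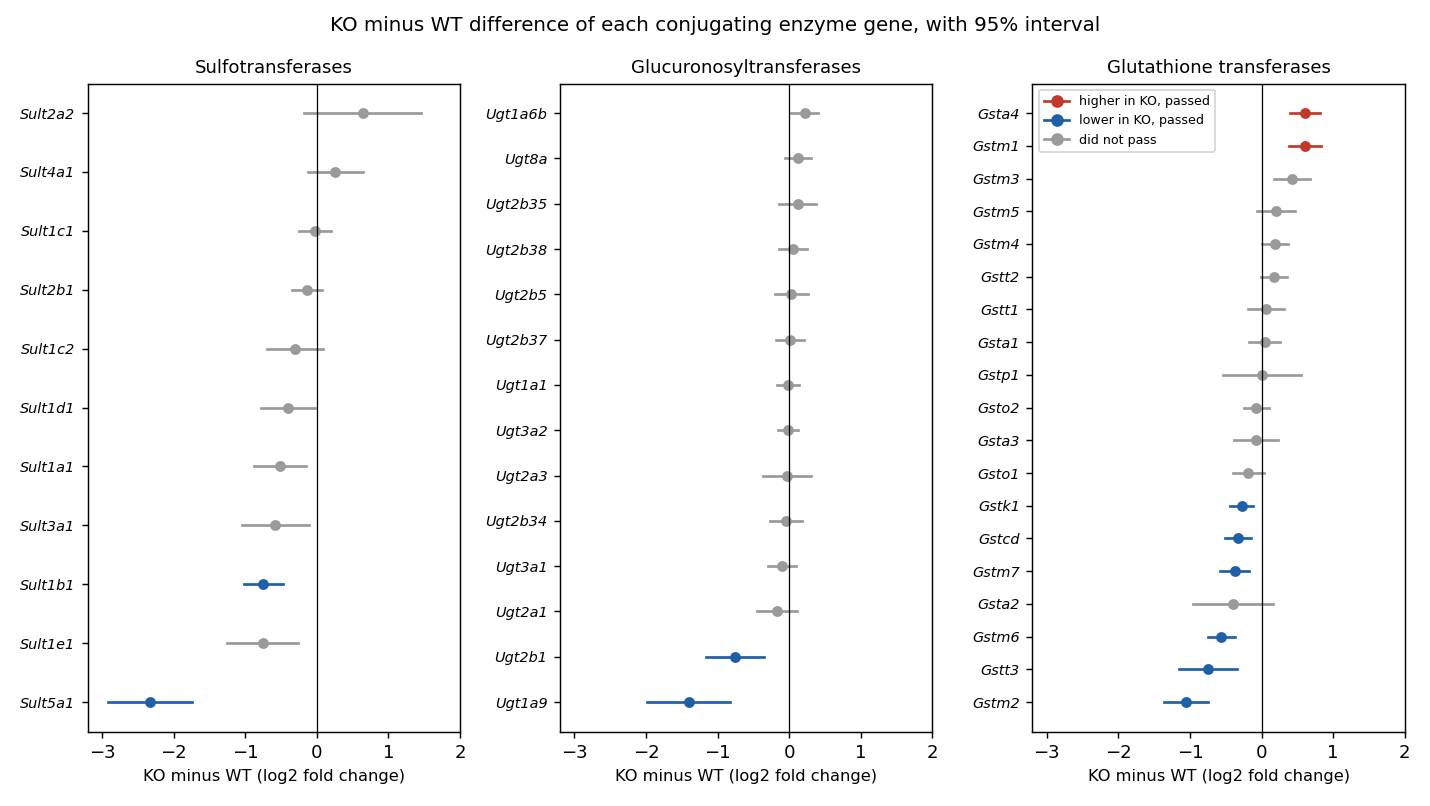
KO minus WT difference (log2 fold change, horizontal axis) of each of the 44 members in 3 panels by family, with points for estimates and lines for 95% intervals from the model with sex. Sult5a1 lies lowest at -2.33, the Ugt genes other than Ugt1a9 and Ugt2b1 lie close to 0, and the Gst genes spread to both sides, between -1.05 and 0.61.

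Among the sulfotransferases, Sult5a1 and Sult1b1 fell. Sult5a1 is a less studied member of the family (probe at chr8:121784746-121784805 in the array's build, mm7). It had log2 ratios of 1.09, 0.52, 1.84, 1.05 and 1.53 in KO 1 to KO 5, against 3.93, 3.49, 3.84, 3.61 and 2.73 in WT 1 to WT 5. Every KO liver was below every WT liver. The mean was 1.21 ± 0.50 in KO livers and 3.52 ± 0.47 in WT livers (SD, n = 5 each), a difference of -2.33 (SE 0.27, limma adjusted p = 0.00063) or 5.02-fold lower. It was -2.59 in females and -2.07 in males, and -2.90 within slide 1 and -2.19 within slide 3.

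Sult1b1 sulfates thyroid hormones and small phenols (probe at chr5:87451685-87451744, mm7). In KO livers it had log2 ratios of 4.83, 4.91, 5.09, 5.18 and 5.01, against 5.79, 5.95, 5.83, 5.30 and 5.97 in WT livers. The groups did not overlap, and WT 4 lay nearest to the KO livers. The difference was -0.75 (SE 0.13, limma adjusted p = 0.0061), 1.68-fold lower, and was -1.0 within slide 1 and -0.55 within slide 3. A second Sult1b1 probe gave -0.62 and did not pass (adjusted p = 0.056 over all probes). The call was lost with outlier spots removed after the background correction (-0.41, limma adjusted p = 0.72), with median centring (-0.55, adjusted p = 0.14), with the scanner's own log ratio (adjusted p = 0.159) and without both male KO livers (-0.51, adjusted p = 0.10).

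The other 9 sulfotransferases did not pass for genotype. Sult1e1, the oestrogen sulfotransferase, differed by -0.76 (95% interval -1.25 to -0.27, limma adjusted p = 0.073) and is described with the sexes below. Sult1a1, which sulfates phenols, had -0.52 (-0.88 to -0.16) and Sult1d1, which sulfates catecholamines in the mouse, -0.40 (-0.78 to -0.02). The hydroxysteroid enzyme Sult2a2 had 0.64, with 1.42 in females and -0.14 in males. It met the filter through the females and was near background in males, so its interval is not read. The intervals of Sult1e1, Sult1a1 and Sult1d1 leave room for falls as large as that of Sult1b1.

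Among the glucuronosyltransferases, Ugt1a9 and Ugt2b1 fell. Ugt1a9 belongs to the locus whose genes join their own first exon to shared later exons, and its enzyme conjugates phenols and many drugs (probe at chr1:87975078-87975137, mm7). It had log2 ratios of 0.74, 0.38, 0.16 and 0.92 in KO 1, KO 2, KO 4 and KO 5, the spot of KO 3 having been removed as a scanner outlier. WT 1 to WT 5 had 1.70, 1.59, 2.48, 2.57 and 1.30. All 4 measured KO livers were below all 5 WT livers, with the female WT livers highest and the female KO livers lowest. The difference was -1.41 (SE 0.26, limma adjusted p = 0.012, KO n = 4, WT n = 5), 2.65-fold lower. The scanner's log ratio gave -2.33 (limma adjusted p = 0.046), and the call was lost with outlier spots removed after the background correction (-1.28, adjusted p = 0.15). It was -2.25 in females and -0.70 in males, and these did not differ at the threshold (adjusted p = 0.054).

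Ugt2b1, a steroid and xenobiotic conjugating enzyme of the 2B subfamily, lies at chr5:86854051-86854110 in mm7. In KO 1 to KO 5 it had log2 ratios of 7.13, 5.30, 6.26, 5.87 and 7.13, against 7.97, 8.32, 6.75, 6.08 and 7.83 in WT 1 to WT 5. Males were higher than females in both genotypes and the groups overlapped, and among males every KO liver was below every WT liver. With sex in the model the difference was -0.76 (SE 0.19, limma adjusted p = 0.037). The value was -1.93 within slide 1 and 0.72 within slide 3, where a male KO liver stood against female WT livers, and -1.01 among the males of slide 1. Leaving out KO 1, KO 2, KO 4, KO 5, WT 1, WT 2 or WT 3 ended the call (adjusted p 0.058 to 0.13). So did removing outlier spots after the background correction (-0.36, limma adjusted p = 0.84), median centring (-0.59, adjusted p = 0.30), the scanner's log ratio (adjusted p = 0.168), leaving out both male KO livers (adjusted p = 0.27) and leaving out the sex term (-1.05, adjusted p = 0.27).

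The remaining 12 Ugt genes did not pass, and their differences lay between -0.17 (Ugt2a1) and 0.21 (Ugt1a6b). The bilirubin enzyme Ugt1a1 had 5.12 ± 0.24 in KO livers and 5.04 ± 0.25 in WT livers (SD, n = 5 each), a difference of -0.01 with a 95% interval of -0.17 to 0.14. Ugt2b5 had a difference of 0.03 (-0.20 to 0.27). Ugt1a6b, whose enzyme conjugates small phenols, was read by a pair of probes that were both higher in KO, of which 1 passed. Its brighter probe gave 0.21 (limma adjusted p = 0.17), and its second probe, at chr1:88010877-88010936 in mm7, gave 0.47 (adjusted p = 0.016 over all probes). The mean of both passed, with 0.34 (limma adjusted p = 0.027). A second Ugt2a1 probe, nearly as bright as the first, gave -0.38 and did not pass (adjusted p = 0.051 over all probes). The brighter Ugt1a6b probe lies at chr1:88122519-88122578, beyond the Ugt1a1 probe at chr1:88115927-88115986 (mm7). Whether a probe lies in an exon shared by the Ugt1a genes was not looked up. The brighter probe, and the mean of both, therefore need not describe Ugt1a6b alone.

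**Figure D2:**
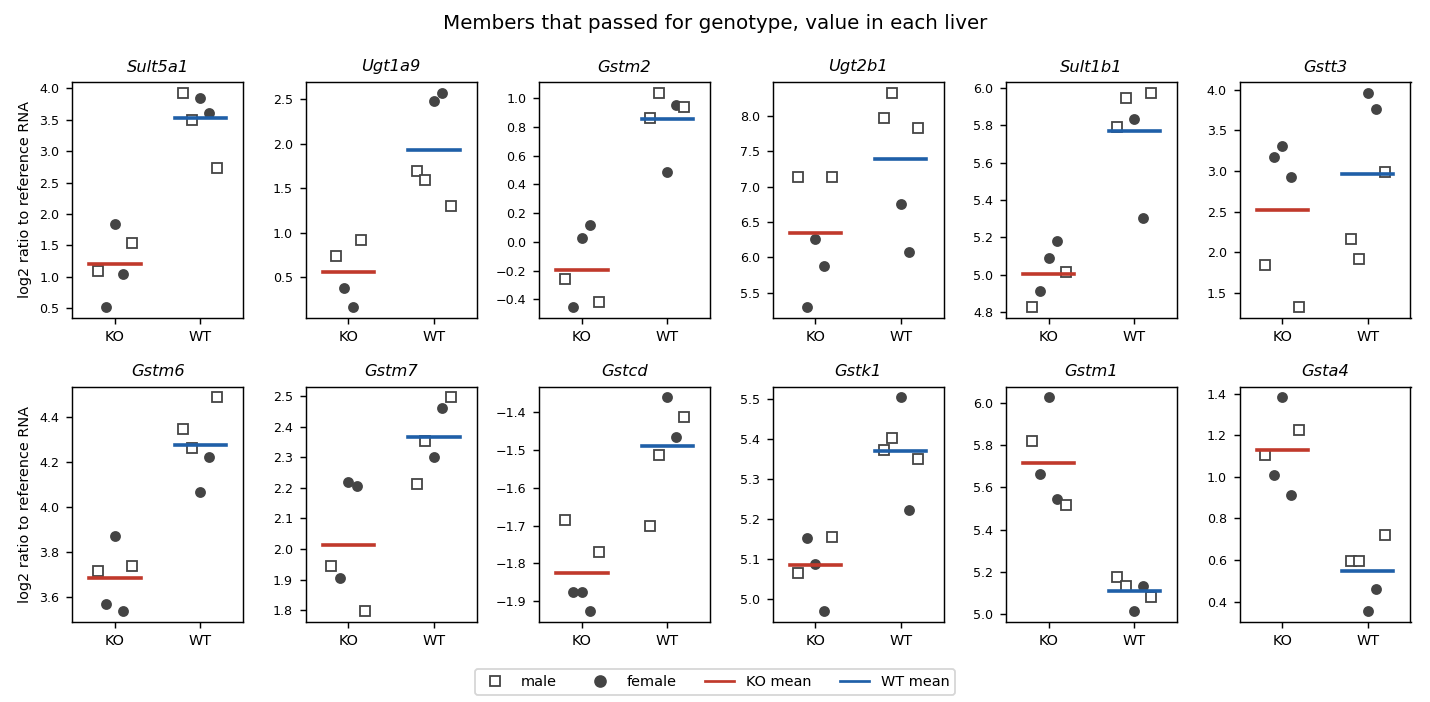
Log2 ratio to the reference RNA (vertical axis, a scale of its own for each gene) in every KO and WT liver for the 12 members that passed for genotype, with squares for males, circles for females and bars for group means. KO and WT livers do not overlap for Sult5a1, Ugt1a9, Gstm2, Sult1b1, Gstm6, Gstk1, Gstm1 and Gsta4, and overlap for Ugt2b1, Gstt3, Gstm7 and Gstcd.

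The glutathione transferases changed in both directions, also within the mu class. The 7 mu genes lie side by side on chromosome 3, where their probes span 143 kb in mm7 (chr3:107716471-107859231). In the order of the probes the KO minus WT differences were 0.21 for Gstm5, -0.38 for Gstm7, -0.56 for Gstm6, 0.43 for Gstm3, -1.05 for Gstm2, 0.60 for Gstm1 and 0.19 for Gstm4. Gstm7, Gstm6 and Gstm2 fell, Gstm1 rose, and Gstm3 missed the threshold (limma adjusted p = 0.053). Mu enzymes conjugate epoxides and other electrophiles, and the genes resemble each other in sequence. The probe sequences were not used here, so signal shared between neighbours was not assessed.

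Gstm2 had log2 ratios of -0.26, -0.45, 0.03, 0.12 and -0.42 in KO livers, against 0.86, 1.04, 0.48, 0.95 and 0.94 in WT livers. No KO liver reached the lowest WT liver, WT 3. The difference was -1.05 (SE 0.14, limma adjusted p = 0.0016), 2.08-fold lower, and was -1.30 within slide 1 and -1.14 within slide 3. Gstm1, whose probe lies 30.5 kb from that of Gstm2, had 5.82, 5.66, 6.03, 5.54 and 5.52 in KO livers, against 5.17, 5.14, 5.02, 5.13 and 5.08 in WT livers. All KO livers were above all WT livers, which were close together. Gstm1 was 0.60 higher in KO (SE 0.10, limma adjusted p = 0.0058), and its second probe gave 0.45. On the Cy5 channel alone, without the reference, the Gstm1 difference was 0.15 (adjusted p = 0.64), and the rise was also lost with median centring (0.56, adjusted p = 0.099) and with outlier spots removed after the background correction (0.67, adjusted p = 0.058).

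Gstm6 had 3.71, 3.57, 3.87, 3.54 and 3.74 in KO livers, against 4.35, 4.26, 4.07, 4.22 and 4.49 in WT livers, again without overlap. It fell by 0.56 on the log2 scale (SE 0.09, limma adjusted p = 0.0036), a call lost with outlier spots removed after the background correction (-0.37, adjusted p = 0.46), with median centring (-0.39, adjusted p = 0.17) and without both male KO livers (adjusted p = 0.063). Gstm7 had 1.80 to 2.22 in KO livers, against 2.21 to 2.50 in WT livers, so that the highest KO and the lowest WT liver met. Both of its probes fell, by 0.38 and 0.39. The Gstm7 call was lost without KO 1, KO 2, KO 5, WT 2, WT 4 or WT 5 (adjusted p 0.053 to 0.095). It was also lost with median centring (-0.22, adjusted p = 0.55), outlier spots removed after the background correction (-0.26, adjusted p = 0.43), the scanner's log ratio, the authors' deposited table, Cy5 alone, no sex term and without both male KO livers.

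**Figure D3:**
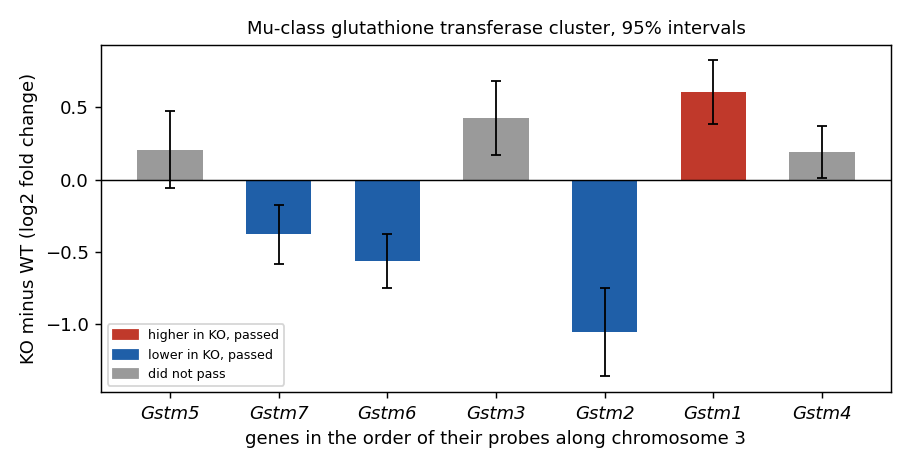
KO minus WT difference (log2 fold change, vertical axis) of the 7 mu-class genes, ordered as their probes lie along chromosome 3, with bars for the estimates and lines for 95% intervals. Bars below 0 (Gstm7, Gstm6, Gstm2) stand between bars above 0 (Gstm5, Gstm3, Gstm1, Gstm4), of which Gstm1 alone passed.

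Gsta4, the alpha-class enzyme that clears the lipid peroxidation product 4-hydroxynonenal, rose in KO livers (probe at chr9:78241323-78242428, mm7). It had log2 ratios of 1.10, 1.01, 1.38, 0.91 and 1.23 in KO livers, against 0.59, 0.59, 0.35, 0.46 and 0.72 in WT livers. Every KO liver exceeded every WT liver. The difference was 0.61 (SE 0.09, limma adjusted p = 0.0039), 1.53-fold higher, with 0.69 in females and 0.53 in males. The other alpha genes did not pass: Gsta1 differed by 0.05, Gsta2 by -0.39 and Gsta3, whose promoter is shown above, by -0.08.

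Of the theta class, Gstt3 fell and Gstt1 and Gstt2 did not pass. Gstt3 had 1.85, 3.18, 3.31, 2.93 and 1.32 in KO livers, against 2.16, 1.92, 3.96, 3.76 and 2.98 in WT livers. The groups overlapped over the sexes, while within each sex all KO livers were below all WT livers. With sex in the model the difference was -0.75 (SE 0.19, limma adjusted p = 0.038), but it was 0.47 within slide 1, which sets a female and a male KO liver against male WT livers, and -0.19 among the males of slide 1. Without the sex term it was -0.44 (adjusted p = 0.69), with slide as a block -0.56 (adjusted p = 0.066), and leaving out any KO liver, WT 3 or WT 4 ended the call (adjusted p 0.052 to 0.12). So did median centring (adjusted p = 0.078), removing outlier spots after the background correction (adjusted p = 0.056) and leaving out both male KO livers (adjusted p = 0.16).

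Gstk1, the kappa-class enzyme of mitochondria and peroxisomes, and Gstcd had the smallest falls. Gstk1 had 4.97 to 5.15 in KO livers, against 5.22 to 5.50 in WT livers, without overlap, and a difference of -0.28 (limma adjusted p = 0.046). Gstcd had -1.93 to -1.69 in KO livers, against -1.70 to -1.36 in WT livers, and a difference of -0.33 (limma adjusted p = 0.038). The Gstk1 call was lost when any liver but WT 4 was left out, and the Gstcd call when any liver but WT 1 was left out (adjusted p 0.055 to 0.14 and 0.051 to 0.13), and both were lost with slide as a block, median centring (-0.22 for Gstk1 and -0.19 for Gstcd) and outlier spots removed after the background correction (-0.18 and -0.36). Gstk1 was also lost with the authors' deposited table, no filter on dim probes and without both male KO livers, and had -0.48 on Cy5 alone, where Gstcd was lost. The pi enzyme Gstp1 and the omega enzymes Gsto1 and Gsto2 did not pass for genotype, with differences of 0.00, -0.18 and -0.07.

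More of these genes passed for sex than for genotype, as was so over all genes tested (11.6% and 6.00%). Livers of females differed from those of males at 20 of the 44 members (45.5%), 14 higher and 6 lower in females, beside 11.6% of all genes tested, 5.02% higher and 6.60% lower. These counts include Sult2a2 and Sult3a1, which met the filter through females, and among the 39 members well above background on all 10 arrays 18 passed. Of the Sult genes 7 of 11 were higher in females and none of them lower. Of the Ugt genes 2 were higher and 4 lower, and of the Gst genes 5 higher and 2 lower. Of the 12 members that passed for genotype, Gstt3 also passed for sex as higher in females and Ugt2b1 as lower in females, and the other 10 did not pass for sex. All female KO livers were on slides 1 and 2 and both female WT livers on slide 3.

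**Figure D4:**
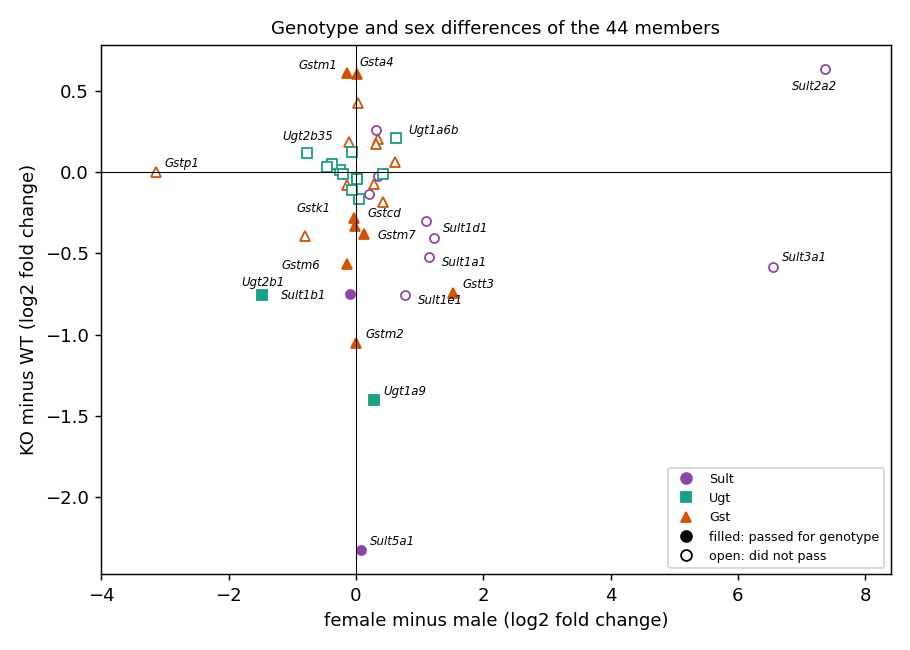
KO minus WT difference (vertical axis) against female minus male difference (horizontal axis), both log2 fold changes, for the 44 members, with shape and colour for the family and filled symbols for members that passed for genotype. Sult2a2 and Sult3a1 stand far to the right and Gstp1 to the left, while most filled symbols lie near 0 on the sex axis.

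Sult2a2 and Sult3a1, a hydroxysteroid and an amine sulfotransferase of the mouse, were high in females and at or near background in males. Sult2a2 had 7.08, 8.74 and 8.71 in KO females and 6.29 and 7.22 in WT females, against 0.07 and -0.01 in KO males and 0.25, 0.11 and 0.16 in WT males. Sult3a1 had 5.92, 6.46 and 6.81 in KO females and 7.78 and 7.08 in WT females, against 0.39 and 0.21 in KO males and 0.32, 0.48 and 0.50 in WT males. On these probes the sexes were far apart in both genotypes. They were well above background in 5 of 5 females but only in 1 of 5 males for Sult2a2 and 3 of 5 for Sult3a1. A second, dimmer Sult2a2 probe was well above background on only 3 arrays. It had 0.95, 3.12 and 3.77 in KO females and 0.25 and 0.58 in WT females, against -0.18 to 0.15 in males. Both members met the filter on dim probes through the females, where they are high, so their sex differences are given as levels and with no test, and no rank is read from them.

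Female livers were also higher in Sult1d1 by 1.23, in Sult1a1 by 1.15 and in Sult1c2 by 1.10. Gstt3 was 1.53 higher in females, Gstt1 0.61 and Ugt1a1 0.43. The brighter Ugt1a6b probe was 0.62 higher in females (limma adjusted p = 0.00059), but its second probe was lower in females, with -0.46. Sult1c1, Gsto1, Gsto2 and Gstt2 were higher by 0.28 to 0.42.

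Gstp1 was the member most biased to males. It had 0.79, 1.05 and 0.48 in KO females and 0.18 and 0.12 in WT females, against 3.30 and 3.30 in KO males and 4.32, 4.07 and 3.36 in WT males. Female KO livers were above female WT livers and male KO livers below male WT livers. The female minus male difference was -3.15 (SE 0.25, limma adjusted p = 1.8e-05), and the second probe gave -2.86. The KO effect on Gstp1 was 0.62 in females and -0.62 in males, and the difference of these, 1.24, did not pass (adjusted p = 0.23). Ugt2b1 was lower in females by 1.47, Ugt2b35 by 0.77, Ugt2b5 by 0.45, Gsta1 by 0.44 and Ugt2b38 by 0.38. With outlier spots removed after the background correction, Ugt2b1, Ugt2b35, Ugt2b5 and Gsta1 did not pass for sex (limma adjusted p = 0.32, 0.71, 0.97 and 0.23). Ugt2b1 and Ugt2b5 were also lost with the scanner's log ratio (adjusted p = 0.11 and 0.47). Median centring lost Ugt2b5 and Gsta1 (adjusted p = 0.31 and 0.29). Gstp1 passed for sex in 20 of 21 alternatives.

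Whether the KO effect differed between the sexes was tested with an interaction term. It passed for 6 of all genes tested (0.0317%), of which Sult1e1 was the member. Sult1e1 inactivates oestrogens. It had 0.40, 0.24 and 0.04 in KO females, against 1.79 and 1.57 in WT females, and 0.10 and 0.20 in KO males, against 0.30, 0.20 and 0.12 in WT males. Both WT females stood above the other 8 livers, which lay between 0.04 and 0.40. The KO effect was -1.46 in females and -0.06 in males, a difference of -1.40 (SE 0.17, limma adjusted p = 0.024). With slide as a block this difference was -1.04 (adjusted p = 0.69), and leaving out KO 3, KO 4, KO 5, WT 2 or WT 4 ended the call (adjusted p 0.054 to 0.11). Both WT females lay on slide 3 and no KO female did, so slide and genotype among females cannot be told apart.

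**Figure D5:**
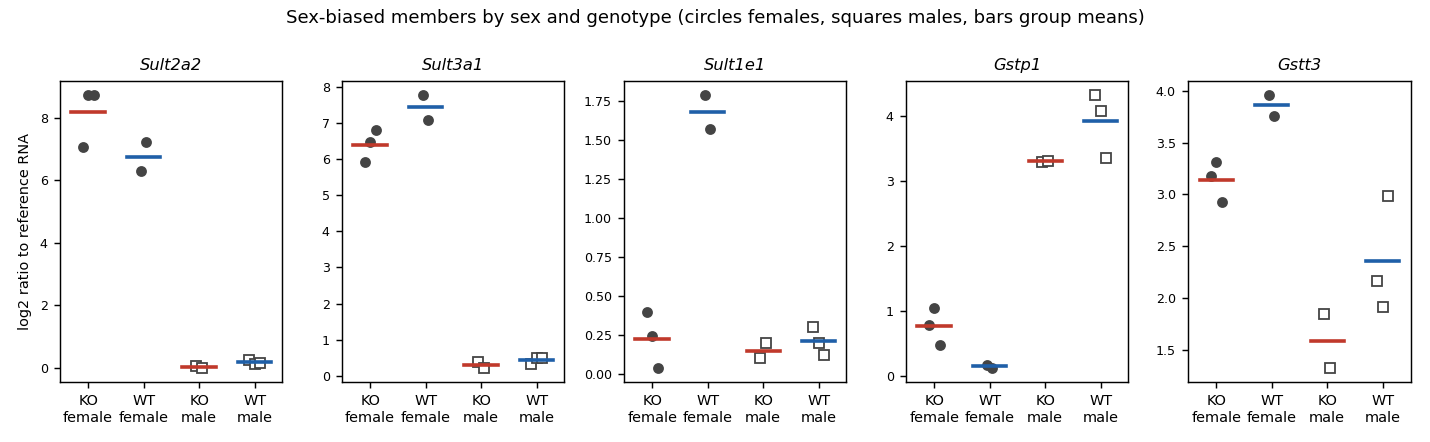
Log2 ratio to the reference RNA (vertical axis, a scale of its own for each gene) of Sult2a2, Sult3a1, Sult1e1, Gstp1 and Gstt3 in KO females, WT females, KO males and WT males, with circles for females, squares for males and bars for group means. Sult2a2 and Sult3a1 are near 0 in all males, Sult1e1 is above 1.5 in the WT females alone, and Gstp1 is above 3 in males only.

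Genes that supply the conjugating reactions were taken as lists. Of 15 tested genes of cofactor supply, 3 fell and 1 rose, with a median of -0.06, beside 3.09% lower and 2.90% higher among all genes tested. Papss2, which makes the sulfate donor PAPS, fell by 0.64 on the log2 scale (limma adjusted p = 0.024) and was 1.04 higher in females. Cth and Cbs, which make cysteine for glutathione, had differences of -1.18 (limma adjusted p = 0.00028) and -0.35 (limma adjusted p = 0.031). Gclc, the catalytic subunit of the rate-limiting enzyme of glutathione synthesis, rose by 0.57 (limma adjusted p = 0.042). Cth had 3.25 to 3.70 in KO livers, against 4.37 to 4.87 in WT livers.

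In a list of 6 genes, of membrane-bound glutathione transferases, relatives and the cyclooxygenase Ptgs1, 1 passed. This was Ptges, a prostaglandin E synthase, with 0.68. Among 11 other conjugating and hydrolysing enzymes, Nnmt, which methylates nicotinamide, had -2.22 ± 0.60 in KO livers and 4.03 ± 0.48 in WT livers (SD, n = 5 each). Its difference of -6.23 passed, and Ephx1, the microsomal epoxide hydrolase, rose by 0.61. In a list of 11 exporters, uptake carriers and hydrolytic enzymes, 1 passed, the exporter Abcc3, with 0.36. Among the regulators, the oestrogen receptor Esr1 fell, with -0.45, and Nfe2l2, which encodes NRF2, rose, with 0.38.

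Markers of the cells of liver were set beside these values. Hepatocyte markers were high in every liver, and 1 of 7 tested, Tat, was lower in KO. Of 8 markers of hepatocytes around the central vein 3 fell in KO livers: Oat by 3.25, Slc1a2 by 0.63 and Lgr5 by 0.69 on the log2 scale. The mean log2 ratio over these 8 was 3.51 to 3.66 in KO livers, against 3.89 to 4.46 in WT livers. Without Oat, the mean of the other 7 was 3.93 to 4.14 in KO livers, against 3.99 to 4.56 in WT livers, so that the groups overlapped. The pericentral Glul, at 5.70 ± 0.24 in KO livers and 5.52 ± 0.40 in WT livers, did not pass. Of 6 endothelial markers Pecam1 rose by 0.26 and Lyve1 by 1.47. The list's mean, which includes Lyve1, was 3.72 to 4.0 in KO livers, against 3.06 to 3.59 in WT livers. A mean without Lyve1 was not taken, so this separation is not read as a shift of the whole list. Stab2, Kdr, Clec4g and Cdh5 had differences of 0.09 to 0.52 that did not pass, and at each of them KO and WT livers overlapped. Every pericentral and endothelial marker was well above background in all livers, except Axin2, which was so in 4 of 5 KO livers. The part of either list in the changes of the conjugating enzymes was not tested. No marker of bile duct, Kupffer, stellate, lymphoid, adipose or pancreatic acinar cells passed for genotype. The adipose marker Cfd had 7.22 and 5.56 in the male KO livers KO 1 and KO 5, and at most 1.31 in the others. Its difference was 2.81 (limma adjusted p = 0.091). The adipose markers Plin1 and Retn lay between -0.32 and 0.33 in all livers.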

How the data were processed

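RNA of 10 mouse livers was measured on 2-colour Agilent arrays (design 014868), with universal mouse reference RNA in Cy3 on every array and no dye swap, per the labels. Spot signals and local backgrounds are deposited intensity values, extracted with Agilent Feature Extraction (10.7 per the submitters' processing notes, 10.7.3.1 per the file headers). The scanner's ratio is a log10 of processed Cy5 over Cy3, per the file headers. The authors' deposited table holds log2 values that correlated with those used here at 0.9994 to 0.9996 per array, so its direction is Cy5 over Cy3. Its normalisation steps are not given in the sources used here.

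Spots with scanner outlier flags (255 to 411 of 45018 per array) were removed, local background was corrected with normexp (offset 50), and a loess curve per array, in which control spots had weight 0, centred the log2 ratios. Repeated spots of 1 probe were averaged. Fits used limma 3.58.1 in R 4.3.3 with genotype and sex, or also their interaction, over 18912 genes, of which 67 had a missing value, and were tested on simulated data. Adjusted p-values are Benjamini-Hochberg over all genes unless said to be over all probes. The members and the gene lists were chosen with earlier results of these data known. Named members were those that passed for genotype or the interaction, the 3 largest genotype differences of each family and the 4 largest sex differences that passed in each. Names came from the RefSeq table of GRCm38.p6 by accession (22951 probes), symbol (6659) or synonym (3109), with 8455 left as in the files. Coordinates of probes are those of the files' build, mm7. Same-numbered KO and WT livers did not pair (correlations of residuals -0.306 to 0.251). For the list of regulators, 1 result is not reported here.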

Additional observations from a re-analysis of the deposited data

Results flagged for a closer look

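WT 4 stood apart from the other WT livers in Sult1b1. Its log2 ratio was 5.305, and the nearest WT liver had 5.794, a gap that took 0.731 of the range of the 5 WT livers. Without WT 4 the KO minus WT difference in Sult1b1 was -0.90 (limma adjusted p = 0.00069), so the fall was larger without that liver. This was the 1 sample to stand apart in this way among 46 groups of values checked over 23 members. If about 1 in 20 groups held such a sample by chance, 1 among 46 would be no more than that. The groups mix the sexes, so that rate need not hold for them.

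The KO effect on Sult1e1 differed between the sexes. The effect in females minus that in males was -1.398 on the log2 scale (limma adjusted p = 0.024). The test of this difference passed in 7 of 16 alternatives, in which it lay between -2.63 and -1.04, and the adjusted p was 0.017 to 0.69. At an unadjusted p under 0.05 the interaction counted 9 members (20.5%), beside 12.5% of all genes tested, and 1 of the 9 passed after adjustment.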

How the results depend on the processing

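Sult5a1, Gstm2 and Gsta4 passed for genotype in all 23 alternatives tested, and Ugt1a9 in 20 of 22. Gstm1 and Gstm6 passed in 19 of 23 and Sult1b1 in 18. Gstt3 and Ugt2b1 passed in 10 of 23, Gstcd and Gstm7 in 9 and Gstk1 in 7. Of the values that turned round, Gstt3 had 0.47 within slide 1 and Ugt2b1 0.72 within slide 3, where slide 1 sets a male and a female KO liver against male WT livers and slide 3 a male KO liver against female WT livers. The cause of these changes, and of the others, was not tested.

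With median centring 4 members and 281 genes passed for genotype, 11 members for sex and 0 for the interaction. With outlier spots removed after normexp the counts were 3, 339, 9 and 0. The replicate block left 3 members and 308 genes for genotype and 4 members for sex, and has fewer residual degrees of freedom. Without the sex term 623 genes passed. The scanner's log ratio gave 13 members for sex and 0 for the interaction, no filter on dim probes 2 for the interaction, and slide as a fixed block 0. Where limma called 0 members for the interaction, 6 to 9 (13.6% to 20.5%) had an unadjusted p under 0.05, beside 5.07% to 13.8% of all genes. Leaving out 1 liver gave 600 to 1189 genes (600 without WT 3, 601 without KO 1 and 669 without KO 4) and 7 to 11 members for genotype (7 without KO 1 or KO 2), 13 to 18 members for sex (13 without WT 4) and 0 to 3 for the interaction. Without both male KO livers, chosen after seeing the data, 7 members passed for genotype.

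Signal over background limits Sult2a2 and Sult3a1, well above background in 1 and 3 of 5 males. The median of all genes moved by at most 0.07 between settings.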

Other observations

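Some genes of these families stand under other names in the array files and were not members. Sult2a8, a sulfotransferase of liver, had log2 ratios of 6.08 to 7.30 in KO livers, against 7.14 to 7.70 in WT livers, and a difference of -0.56 that did not pass (limma adjusted p = 0.051). It was lower in females by 0.67 (limma adjusted p = 0.014). Gstp3 had 1.05 ± 0.24 in KO livers and 1.0 ± 0.07 in WT livers (SD, n = 5 each), a difference of 0.02 that did not pass. Gstt4 and Sult6b1 were well above background on 0 of 10 arrays.

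Sult4a1, a sulfotransferase member chosen here after its values were seen, did not pass for genotype or sex. It had 0.43, 0.86 and 1.20 in KO females and 0.23 and 0.08 in WT females, against 0.12 and 0.07 in KO males and 0.18, 0.21 and 0.36 in WT males. All 3 KO females lay above the other 7 livers, and the test of the difference between the KO effects, 0.83, did not pass (limma adjusted p = 0.26). Its second probe was well above background on 0 of 10 arrays.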
